A study of Homo sapiens with 4 samples.

Results

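The subject is the chromatin at 8 genes of peroxisomal fatty acid oxidation in the human melanoma line A375, an established cell line. These were ABCD3, ACOX2, ACOX3, EHHADH, HSD17B4, ACAA1, CROT and PEX11A, and every line that the authors' deposited table assigned to one of them was taken. They held 28 of the 91107 distinct regions in the authors' deposited table. The study profiled H3K27ac, an acetylated form of histone H3 found at active promoters and enhancers, by chromatin immunoprecipitation and sequencing, to ask how a medium-chain fatty acid alters chromatin. Its groups were 2 libraries from A375 given the vehicle isopropanol for 48 hours and 2 from A375 given 1 mM octanoate, a fatty acid of medium chain length, for 48 hours. All cells were of this line, grown in medium with serum, and the labels do not say whether the libraries of a group came from separate cultures.

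The values come from 1 comparison in the authors' deposited table, made with DESeq2, a count model. It gives each region a mean level in normalized units, a log2 fold change, a standard error and p-values, and no value per library. Depth per library is therefore unknown, and a spread between replicates could not be computed. The numerator of the fold change is not named, so changes are called positive or negative. Neither sign can be read as a gain or a loss under octanoate. Coordinates are hg38, as written in the table.

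Peroxisomes shorten fatty acids that mitochondria handle poorly, such as very long and branched chains. Acyl-CoA enters through membrane transporters of the ABCD family and is oxidized by an acyl-CoA oxidase, then hydrated and dehydrogenated by a bifunctional enzyme and cleaved by a thiolase, which releases acetyl-CoA. The shortened medium-chain product is handed to carnitine for export to mitochondria. In liver, several genes of the pathway are targets of PPAR-alpha, a nuclear receptor activated by fatty acids that binds DNA with RXR.

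Of the 8 genes, 7 carried an acetylated region over their start in the authors' deposited table, and ACOX2 did not. None of the 28 regions passed an adjusted p of 0.05 in the authors' deposited table, made with DESeq2. DESeq2 gave an adjusted p only above a minimum mean level, and regions that have one are called tested here. The others, called untested, carry an unadjusted p alone. The tested members were 12, and 0 of them were called, against 1.67% of all 36436 tested regions of the authors' deposited table. Before adjustment, 2 of the 12 had p under 0.05, against 18.4% of all tested regions. Both are assigned to HSD17B4 and lie away from its start, one upstream of the gene and the other inside it. Over every region of the authors' deposited table, 3 of 28 had p under 0.05 before adjustment, against 8.99% of all. The one added is a weak region inside EHHADH. These shares are near the background.

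All 12 tested members were positive in the authors' deposited table, with log2 fold changes from 0.04 to 0.84 and a median of 0.38. Most of that table leaned the same way: 87.3% of all tested regions were positive, with a median of 0.32. Set against that median, 7 of the 12 member regions lay above it, and 50% of all tested regions do by definition. Of the 16 untested members, which had mean levels of at most 17.4, 11 were positive in the authors' deposited table. Their standard errors had a median of 0.67, against 0.29 for the 12, so their single values carry little weight. A change shared by most regions and a difference in scaling between the groups cannot be told apart here.

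**Figure D1:**
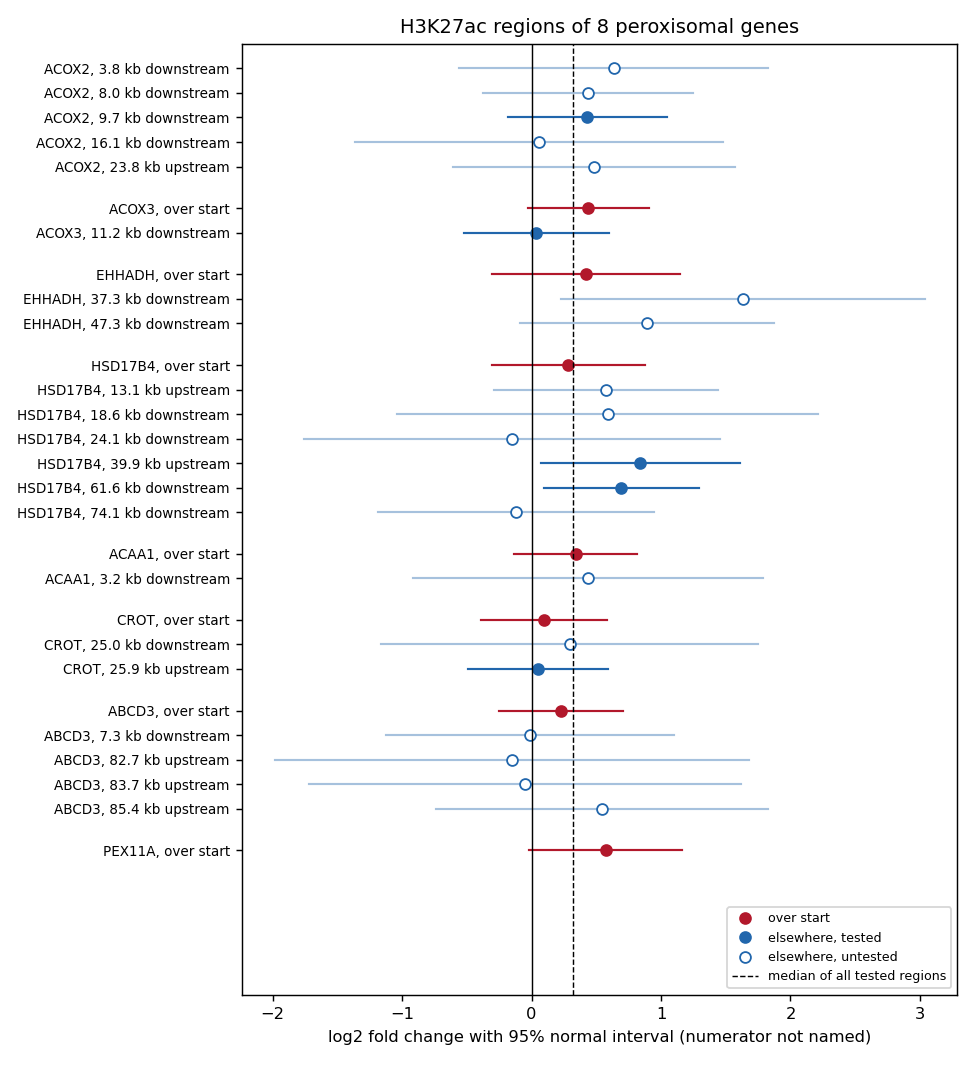
Log2 fold change of each of the 28 regions, ordered by gene and by distance from the start, with 95% normal intervals from the authors' standard errors. Red points lie over a start, filled blue points elsewhere, and open points are untested regions. The dashed line is the median of all tested regions, 0.32. The intervals of 3 regions lie above 0, at EHHADH and HSD17B4, and those of the other regions include 0.

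The table's distances were read as the gap from a region to the start of the assigned gene, with 0 for overlap. The regions away from a start pointed to a single start coordinate for each of 7 genes. ACOX3 and ACAA1 had only 1 such region each, so for them a single coordinate was fixed in advance. The coordinate lay 0 bases from the RefSeq start or gene end for EHHADH and HSD17B4, 1 base for ACOX3, and 116 bases for ACAA1, the farthest. For ACOX2, EHHADH and ACAA1 the strand was itself read from the gene end nearest the coordinate. PEX11A had 1 region, over its start, and so gave no such check. By this reading 7 regions lay over a start, 14 downstream of one and 7 upstream. The 14 downstream regions all overlapped the span of their own gene, and the 7 upstream regions, between 13100 and 85433 bases away, all lay outside it. Exons and introns were not analysed here.

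Regions over starts made up 25% of the members and 11.7% of the whole of the authors' deposited table. All 7 were tested, as were 93.9% of regions over starts in general. Only 5 of the 21 member regions elsewhere were tested, against 32.9% in general. Taken from the authors' deposited table, the median log2 fold change was 0.34 over starts and 0.43 for those 5 elsewhere. The corresponding medians for all tested regions were 0.35 and 0.31. The gap among the members, -0.09, is a description, since the table gives no error for a difference of medians. The 5 elsewhere include the ACOX3 region at 11217 bases, with 0.04, which spans another RefSeq start of ACOX3. The gap with that region counted as a start was not computed.

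**Figure D2:**
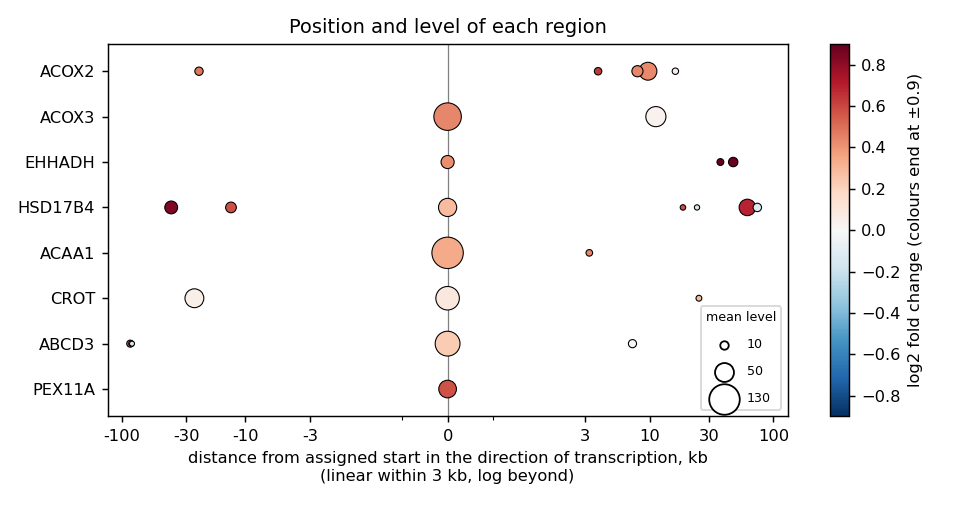
Each circle is a region of the gene named at the left, placed by its distance from the start in the direction of transcription (kb, linear within 3 kb and logarithmic beyond). Circle area is the mean level, not divided by length, and colour is the log2 fold change. ACOX2 has no circle at 0, and the other 7 genes have theirs there, while HSD17B4 spreads over the most sites with 7.

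ABCD3 encodes PMP70, the transporter that brings branched-chain acyl-CoA and bile acid intermediates into the peroxisome. Its start lay in the widest member region of the authors' deposited table, 4846 bases on chromosome 1 (94416459 to 94421305), with a mean level of 85.9. Per kilobase that is a level of 17.7, the lowest of the 7 members over starts and above 14.6% of all regions over starts. The ABCD3 start had a log2 fold change of 0.23 ± 0.24 (standard error; DESeq2 adjusted p = 0.566) in the authors' deposited table. The 95% interval, -0.25 to 0.71, includes both no change and the median of all tested regions. The 4 other ABCD3 regions had mean levels between 3.52 and 9.30, and none was tested in the authors' deposited table. A group of 3 of them lay 82701 to 85433 bases upstream of ABCD3, and 2 of those overlapped the noncoding gene ARHGAP29-AS1, so their assignment to ABCD3 rests on distance alone. The authors' deposited table gives them log2 fold changes of 0.55, -0.05 and -0.15, each with a standard error of at least 0.65.

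The acyl-CoA oxidases carry out the first step and pass electrons to oxygen, which yields hydrogen peroxide. ACOX2, the oxidase for branched chains and bile acid side chains, was the only member without a region over its start. Of the 17301 genes named in the authors' deposited table, 70.2% had such a region. The ACOX2 regions of the authors' deposited table numbered 5, with 4 inside the gene at 3825, 7959, 9677 and 16122 bases downstream of the start and 1 at 23757 bases upstream. The widest, 2688 bases on chromosome 3 (58524919 to 58527607), had the highest mean level of the 5, 44.6, and the lowest per kilobase, 16.6, in the authors' deposited table. Its log2 fold change was 0.43 ± 0.31 (standard error; DESeq2 adjusted p = 0.413) in the authors' deposited table. The other 4 ACOX2 regions had mean levels from 5.74 to 17.4 and log2 fold changes from 0.06 to 0.63 in the authors' deposited table. All 5 were positive, and every interval included 0. The table lists regions that were called, so a missing region gives no level for the ACOX2 start. Whether any ACOX2 region covers a further start of the gene was not examined.

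ACOX3, the oxidase for pristanoyl-CoA, carried acetylation at 2 RefSeq starts. The upstream region of the authors' deposited table lay on chromosome 4 (8439187 to 8443380) and also covered the start of TRMT44, a tRNA methyltransferase gene on the opposite strand. Its mean level was 105 and its log2 fold change 0.44 ± 0.24 (standard error) in the authors' deposited table, at p = 0.0664 before DESeq2's adjustment and p = 0.298 after it. The second region of the authors' deposited table (8427188 to 8429507), 11217 bases downstream, is listed as away from the start but spans another RefSeq start of ACOX3. It had a mean level of 56.4 and a log2 fold change of 0.04 ± 0.29 (standard error; DESeq2 adjusted p = 0.939) in the authors' deposited table. Levels per kilobase were close, 25.2 and 24.3 in the authors' deposited table. The second exceeded 93.5% of all regions away from starts, whose median was 14.7. Both lay slightly below the median of all regions over starts, 25.3. The 95% intervals of the fold changes, -0.03 to 0.91 and -0.52 to 0.60, overlap widely. The difference between these starts was not tested, since the regions share libraries whose values are not given.

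Both ACOX3 promoter windows, each from 250 bases before to 50 after a start, are shown because they lie wholly inside these acetylated regions and share a motif. Sequences are from RefSeq on GRCh38.p14, the same assembly as hg38, on the minus strand. RefSeq windows matched 5 of the 8 genes, with 6 windows in all: ABCD3, ACOX3, CROT, HSD17B4 and PEX11A. Capitals mark matches to any motif searched, on both strands: the half-site AGGTCA bound by nuclear receptors, the E-box CACGTG, the cAMP response element TGACGTCA, the GC box GGGCGG, the CCAAT box CCAAT and the ETS site CCGGAAG. A pair of AGGTCA half-sites in 1 direction with 1 base between them, the form PPAR and RXR bind, was searched as well. The half-site lies within this pair, and no other motif contains another.
ACOX3 upstream start, chr4:8440674-8440973: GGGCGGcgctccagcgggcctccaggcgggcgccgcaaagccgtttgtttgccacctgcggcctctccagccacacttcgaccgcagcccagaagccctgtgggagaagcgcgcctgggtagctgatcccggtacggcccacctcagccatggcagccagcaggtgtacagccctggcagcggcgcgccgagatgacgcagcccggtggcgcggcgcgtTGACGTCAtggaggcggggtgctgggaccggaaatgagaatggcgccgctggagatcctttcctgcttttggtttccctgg
ACOX3 downstream start, chr4:8428399-8428698: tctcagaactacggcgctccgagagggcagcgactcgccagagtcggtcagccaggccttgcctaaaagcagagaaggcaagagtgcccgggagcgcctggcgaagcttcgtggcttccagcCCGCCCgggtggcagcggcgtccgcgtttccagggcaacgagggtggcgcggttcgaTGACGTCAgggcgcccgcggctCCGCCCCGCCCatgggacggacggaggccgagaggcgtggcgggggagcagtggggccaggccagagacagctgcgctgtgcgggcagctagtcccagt

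The full cAMP response element TGACGTCA stands 31 bases before the upstream ACOX3 start and 71 bases before the downstream one. It occurs in 1.85% of all 35116 RefSeq windows of 300 bases, and in none of the other 4 member windows. GC boxes were found in all 6 member windows and in 45.0% of all windows. The member windows were 55.3% to 75% G and C, with 19 to 42 CG pairs. The medians over all windows were 58.7% and 14. Windows of like composition were not compared, so neither the GC box counts nor those of the cAMP response element are read as enrichment. Both windows with the cAMP response element belong to ACOX3 and were shown because they share it. The half-site AGGTCA was found in 0 of the 6 and in 13.8% of all windows, and the paired form in 0 of the 6 and in 0.0228% of all. The paired form is so rare that its absence from 6 windows tells nothing. ACOX2, EHHADH and ACAA1 had no window and were not searched. The E-box was likewise in 0 of the 6, against 7.26% of all. These are matches of letters in a short window and say nothing on binding.

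Downstream of the oxidases, 2 bifunctional enzymes hydrate and dehydrogenate the chain. EHHADH, the L-bifunctional protein and a known target of PPAR-alpha in liver, had the lowest and narrowest of the 7 regions over starts. That region of the authors' deposited table, on chromosome 3 (185253230 to 185254483), was 1253 bases wide with a mean level of 24.0, and it also overlapped the microRNA gene MIR5588. Of all regions over starts, 8.05% were narrower. The log2 fold change at the EHHADH start was 0.42 ± 0.37 (standard error; DESeq2 adjusted p = 0.489) in the authors' deposited table. Inside EHHADH, 37279 bases from the start, lay the member with the largest fold change, 1.63 ± 0.72 (standard error) in the authors' deposited table (185216245 to 185216770). Its mean level was 6.59 and its p was 0.0228 before adjustment in the authors' deposited table, which left it untested. Adjusted with Benjamini-Hochberg over all distinct regions, that DESeq2 p-value became 0.447, and the interval of the fold change ran from 0.23 to 3.04. A neighbour 47314 bases from the start had 0.89 ± 0.50 (standard error) and a mean level of 12.4 in the authors' deposited table.

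HSD17B4, the D-bifunctional protein, which acts on very long and branched chains and on bile acid intermediates, had the most regions, 7. The one over its start (chromosome 5, 119452041 to 119453657) had a mean level of 46.3 and a log2 fold change of 0.29 ± 0.30 (standard error; DESeq2 adjusted p = 0.561) in the authors' deposited table. At 28.6 per kilobase its level in the authors' deposited table stood next to that of ACAA1 at the top of the members. Larger positive values stood away from the start. A region 39864 bases upstream (119411329 to 119412633) had 0.84 ± 0.39 (standard error) at a mean level of 23.0 in the authors' deposited table, at p = 0.0326 before DESeq2's adjustment and p = 0.235 after it. A region 61581 bases downstream, inside the gene (119514077 to 119516480), had 0.69 ± 0.31 (standard error) at a mean level of 38.0 in the authors' deposited table, at p = 0.0235 before DESeq2's adjustment and p = 0.208 after it. Among tested regions away from starts, the first exceeded 94.8% in fold change and the second 88.9%. Once the median of all tested regions, 0.32, was subtracted, their log2 fold changes were 0.52 and 0.37. Computed from DESeq2's standard errors, neither then passed (Benjamini-Hochberg adjusted p = 1.00 for both). The other 4 HSD17B4 regions had mean levels up to 16.0 in the authors' deposited table. It gives them log2 fold changes of 0.58, 0.59, -0.15 and -0.12, with standard errors from 0.44 to 0.83. Both signs thus occurred among the regions of this gene.

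ACAA1, the peroxisomal thiolase, completes the cycle. Its start lay in the region of highest level among the members, 137 on chromosome 3 (38135072 to 38139865) in the authors' deposited table, or 28.7 per kilobase. The region is shared with MYD88, an adaptor of innate immune receptors whose start it also covers, and the acetylation cannot be divided between the genes. The log2 fold change was 0.34 ± 0.24 (standard error; DESeq2 adjusted p = 0.404) in the authors' deposited table, beside a median of 0.32 for all tested regions. A second ACAA1 region, 3248 bases inside the gene, had a mean level of 6.10 and 0.44 ± 0.69 (standard error) in the authors' deposited table.

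CROT, carnitine octanoyltransferase, moves medium-chain acyl groups from CoA to carnitine so that they can leave the peroxisome, and octanoyl-CoA is among its substrates. Its start had the smallest log2 fold change of the 7. That region on chromosome 7 (87342958 to 87346508) had a mean level of 77.1 and a log2 fold change of 0.09 ± 0.25 (standard error; DESeq2 adjusted p = 0.817) in the authors' deposited table. Of tested regions over starts, 6.03% had a lower fold change. A broad region 25883 bases upstream (87316202 to 87319798) had 0.05 ± 0.28 (standard error) at a mean level of 49.5 in the authors' deposited table. The 95% intervals of these CROT regions reached 0.58 and 0.59, ratios close to 1.5, so larger positive changes lie outside them. A weak region 24992 bases downstream overlaps both CROT and ABCB4, and had a mean level of 4.79 and 0.30 ± 0.74 (standard error) in the authors' deposited table. The start region also spans the RefSeq start of TP53TG1, a noncoding gene on the opposite strand that the authors' deposited table does not list beside it.

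The CROT window is shown for its repeated motifs. It lies on the plus strand, inside the start region, with matches in capitals.
CROT start, chr7:87345414-87345713: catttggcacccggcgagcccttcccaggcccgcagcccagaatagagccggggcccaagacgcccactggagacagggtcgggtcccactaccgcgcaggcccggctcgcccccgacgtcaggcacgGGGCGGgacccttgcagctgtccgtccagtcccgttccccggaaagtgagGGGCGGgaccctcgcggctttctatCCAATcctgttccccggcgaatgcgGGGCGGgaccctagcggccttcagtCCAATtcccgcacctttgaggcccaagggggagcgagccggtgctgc

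Its 3 GC boxes begin at bases 129, 179 and 229 of the window, each 50 bases from the next. CCAAT boxes begin at bases 204 and 254, again 50 apart. Aligned without gaps, the 50 bases from the first GC box and those from the second were identical at 39 positions, and the 50 from the second and from the last at 30. The GC box that opens each stretch matches by construction. The identity of unrelated stretches of like composition was not computed. CROT was the only one of the 6 windows with a CCAAT box, which 34.6% of all windows hold.

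PEX11A, a membrane protein that promotes the elongation and division of peroxisomes, had 1 region and the largest log2 fold change of the 7 over starts. The region on chromosome 15 (89689437 to 89691256) had a mean level of 43.5, or 23.9 per kilobase, in the authors' deposited table. Its log2 fold change was 0.57 ± 0.30 (standard error) in the authors' deposited table, at p = 0.0582 before DESeq2's adjustment and p = 0.286 after it. It exceeded 85.3% of tested regions over starts, and its interval ran from -0.02 to 1.16. WDR93 starts in the same region on the opposite strand.

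The PEX11A window, on the minus strand, is shown because it holds a pair of ETS sites in opposite directions.
PEX11A start, chr15:89690705-89691004: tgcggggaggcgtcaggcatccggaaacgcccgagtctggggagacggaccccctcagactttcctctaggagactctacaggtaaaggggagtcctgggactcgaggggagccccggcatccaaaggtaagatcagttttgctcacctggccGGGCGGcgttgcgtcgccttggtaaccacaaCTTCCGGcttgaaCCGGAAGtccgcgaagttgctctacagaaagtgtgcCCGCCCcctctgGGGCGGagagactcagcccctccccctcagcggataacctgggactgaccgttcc

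The ETS sites begin 66 and 53 bases before the PEX11A start, on opposite strands. No other member window had one, and 10.3% of all windows do. Of the 7 regions over starts, 4 cover a start on each strand: those of ACOX3 with TRMT44, ACAA1 with MYD88, CROT with TP53TG1 and PEX11A with WDR93. For ACAA1 the start and strand are those read from the distances. The share among all regions over starts was not computed, so the count is not read as a trait of the members.

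Ordered by log2 fold change over starts in the authors' deposited table, the genes ran CROT, ABCD3, HSD17B4, ACAA1, EHHADH, ACOX3 and PEX11A, from 0.09 to 0.57. Standard errors of the 7 ran from 0.24 to 0.37, so no neighbours in this order differ by more than 1 standard error. Ordered by level per kilobase in the authors' deposited table, they ran ABCD3, EHHADH, CROT, PEX11A, ACOX3, HSD17B4 and ACAA1, from 17.7 to 28.7. The median of all regions over starts was 25.3 per kilobase, with 5 of the 7 members below it. These levels have no error, since the table gives none for them.

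**Figure D3:**
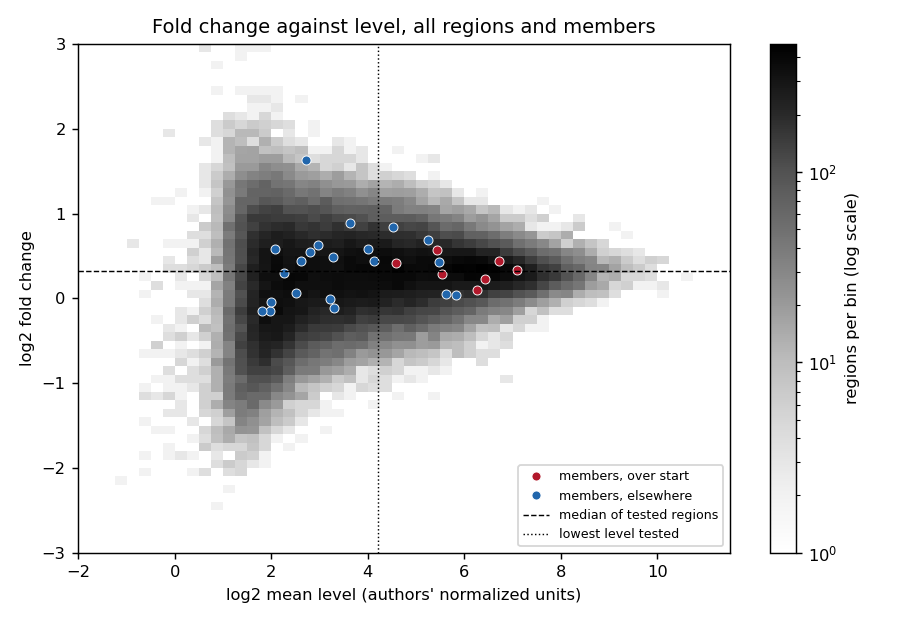
Log2 fold change against log2 mean level for all 91107 regions (grey, regions per bin on a log scale, values beyond 3 in size drawn at the edge) and for the 28 members (red over starts, blue elsewhere). Most members lie inside the main cloud. The untested EHHADH region at 1.63 lies at its sparse upper edge, in a bin of 8 regions. The 16 members to the left of the dotted line were untested.

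The rest of the organelle was described from 2 lists. Of 21 other genes of peroxisomal lipid enzymes and transporters, 20 had regions and 19 had one over a start in the authors' deposited table. Of their 38 tested regions, 1 passed DESeq2's adjustment at 0.05 in the positive direction and 0 in the negative, against 1.67% of all. The median of the 38, from the authors' deposited table, was 0.31, and 35 of them were positive. The call lay over the start of ECH1, a dienoyl-CoA isomerase of peroxisomes and mitochondria, on chromosome 19 (38829096 to 38833699). Its log2 fold change was 0.79 ± 0.22 (standard error), with a DESeq2 adjusted p of 0.0319, in the authors' deposited table, which also assigns the region to AC104534.3. After the median of all tested regions was subtracted the Benjamini-Hochberg adjusted p was 0.786, and for the DESeq2 p adjusted over all distinct regions it was 0.0786. Before adjustment 7 of the 38 had p under 0.05, all positive, a share of 18.4%, as over all tested regions (18.4%).

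Genes of peroxisome biogenesis and division, 18 in number, had 30 tested regions in the authors' deposited table, 26 of them positive, with a median of 0.26. The DESeq2 comparison called 0 of the 30, against 1.67% of all tested regions, and 0 had p under 0.05 before adjustment, against 18.4%. The lowest p of this list belonged to the start of PEX5, the receptor that imports most matrix enzymes. Its log2 fold change was 0.56 ± 0.29 (standard error; DESeq2 adjusted p = 0.271) in the authors' deposited table. Before adjustment, the p of the PEX5 start in the authors' deposited table lay just above 0.05 and rounds to it. The count of 0 before adjustment therefore depends on the exact cutoff at this region. The members' median of 0.38 stood beside 0.31, 0.26 and, over all tested regions, 0.32, and differences among these were not tested.

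**Figure D4:**
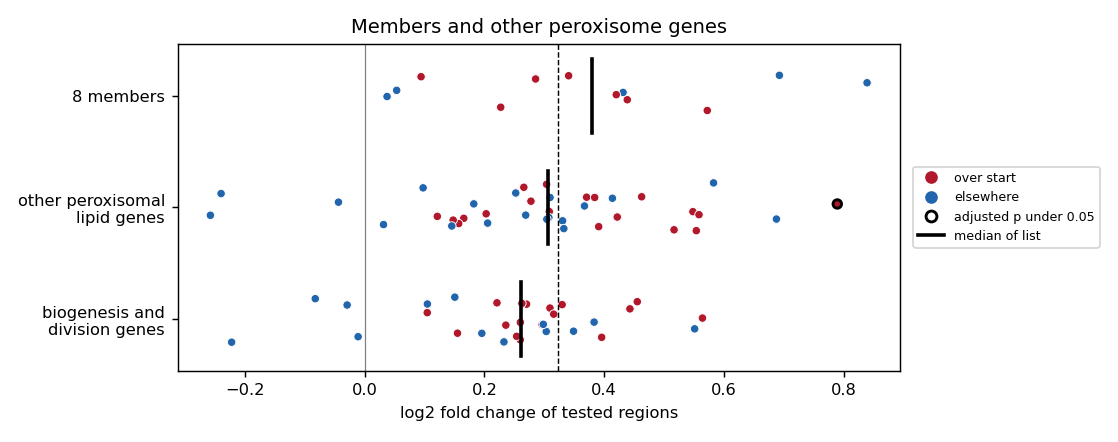
Log2 fold change of each tested region for the 8 members (12 regions), other peroxisomal lipid genes (38) and biogenesis and division genes (30), red over starts and blue elsewhere. Thick bars are list medians of 0.38, 0.31 and 0.26, the dashed line is 0.32, and the ringed point is ECH1.

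Melanocyte lineage genes were read as a check of the labelled cell type. Regions over the starts of SOX10, PMEL and MITF had levels of 41.2, 27.9 and 24.7 per kilobase in the authors' deposited table. These exceeded 96.3%, 62.2% and 47.0% of all regions over starts. The SOX10 region is shared with POLR2F and the PMEL region with CDK2 and RAB5B, so neither level belongs to the lineage gene alone. MLANA, TYR and DCT had regions only away from their starts. The lineage genes therefore gave only a partial check. Of the hepatocyte genes, ALB had 0 regions, TTR none over its start, and APOA1 a start region at 9.96 per kilobase.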

How the data were processed

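H3K27ac was profiled in 4 A375 libraries, 2 vehicle and 2 octanoate, grouped by the treatment in the labels. Per the submitters' processing notes, the tools named were Trim Galore, cutadapt, FastQC, Bowtie2, Picard, MACS2, featureCounts, DESeq2 and bedtools 2.29.1, with build hg38; their order and settings are not given in the sources used here. Per the file headers, the deposited mean level is a signal normalized by the authors, the fold change and standard error are on the log2 scale, the statistic is a score, and each region has an unadjusted and an adjusted p-value. The score equalled fold change over standard error, and the adjusted values were those of Benjamini and Hochberg's method over 36436 regions, called tested here. A deposited adjusted p-value of 1, which every region with a mean level up to 18.44 had, was read as not computed. The edgeR or limma test planned across libraries could not be run without values per library, so the authors' DESeq2 comparison is described across all regions. The number of per-library columns left out was 0.

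Repeated lines were merged into distinct regions. Intervals are 95% normal intervals from the authors' standard errors and carry no other error. Width is end minus start, and level per kilobase is mean level over width. Centring subtracted the median of 0.32, with a two-sided normal p-value and Benjamini-Hochberg adjustment. Its code was run on simulated data whose added changes were larger than that of any member. Its power for changes of the members' size was not assessed. Starts and promoter windows came from RefSeq GRCh38.p14. Alternatives were a threshold of 0.01, a minimum log2 fold change of 1 in size, adjustment over all distinct regions, centring, filters on level, 1 region per gene, each gene left out and wider definitions of a start; centring of the median was chosen after seeing the data. All 8 genes are described, in full for regions over starts, regions called and the lowest p-value of each gene. From the other lists, calls and the lowest p-value are named. Members, lists and tests were chosen with earlier results of these data known. Python 3.11.15, pandas 2.3.3 and scipy 1.17.1 were used.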

Additional observations from a re-analysis of the deposited data

How the results depend on the processing

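The count of member regions called stayed at 0 with a threshold of 0.01, a minimum log2 fold change of 1 in size and adjustment over all distinct regions. It was also 0 with both forms of centring and 1 region per gene. For p under 0.05 before adjustment it was 2 of 12, against 18.4% of all tested regions. The share of all regions called under the other settings was not computed, so a count of 0 there has no background beside it. The median of the 12 regions, 0.38, ran from 0.34 to 0.43 across filters, 1 region per gene and each gene left out, and became 0.057 after centring, by construction. The positive share of 100% was 82.1% over every member region and 58.3% after centring. The other lipid genes had 7 regions in place of 1 for p under 0.05 before adjustment and 0 after centring. Centring on the median of tested regions turned the sign at 5 of the 12 regions: -0.29 for ACOX3 at 11217 bases, -0.038 for the HSD17B4 start, -0.27 and -0.23 for CROT at 25883 bases and its start, and -0.10 for the ABCD3 start. On the median of all regions, 0.28, the same setting gave -0.24 for ACOX3, -0.23 and -0.19 for CROT and -0.052 for ABCD3, 4 in all. The difference between starts and other regions, -0.09, became 0.01 with distances of at most 10000 bases counted as starts, and neither value has an error. The ACOX3 region at 11217 bases, which spans a further RefSeq start, stayed among the other regions in both.

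No paired analysis was possible because values of single libraries are not given. Leaving out each library was not run. Low mean levels limit the 16 untested regions.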
